A study of Danio rerio with 16 samples.

Results

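The genes described here are the deiodinases, the thyroid hormone receptors and the genes for the hormone's precursor protein and its peroxidase: dio1, dio2, dio3a, dio3b, thraa, thrab, thrb, tg and tpo. They were chosen as a named group, without a threshold on measured values. Of the 9 names, 7 were matched to a row of the count tables, which hold 32105 gene rows. The symbols dio3a and tpo matched no identifier and were not analysed here. The identifier ENSDARG00000000151 was taken as thraa, and the other identifier that carries the symbol THRA, ENSDARG00000052654, was taken as thrab. The remaining members were dio1 (ENSDARG00000042112), dio2 (ENSDARG00000094857), dio3b (ENSDARG00000095767), thrb (ENSDARG00000021163) and tg (ENSDARG00000020084). All 7 passed the filter on low counts.

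The study measured total RNA of whole zebrafish larvae, 5 days old, after exposure to PCB153 from 4 to 120 hours after fertilisation. PCB153 is a long-lived polychlorinated biphenyl that is not dioxin-like. The 4 groups, of 4 libraries each, received 0.1% DMSO as solvent control or 0.1, 1 or 10 µM PCB153. The labels name no clutch, batch or number of larvae for a library, so p-values measure only the spread between these libraries, which may be technical.

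Thyroid hormone is made in the follicles of the thyroid on the protein thyroglobulin and leaves the gland mostly as thyroxine. Deiodinases are selenoproteins: type 2 converts thyroxine to the active triiodothyronine, type 3 inactivates both hormones, and type 1 can do either. The active hormone binds nuclear receptors of the alpha and beta kind, which pair with retinoid X receptors and recruit co-repressors or co-activators at target genes. In zebrafish larvae the hormone is known for its part in development, including that of cone photoreceptors.

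The libraries held between 8069225 and 15531744 gene counts. Of the uniquely aligned reads, 31.4% to 40.4% lay outside counted genes. This share was 31.7% to 33.3% at 10 µM and overlapped neither that at 1 µM (35.1% to 40.4%) nor that at 0.1 µM (36.2% to 38.6%), with an exact permutation p of 0.0286 for each, the smallest that 4 against 4 libraries allow, and an adjusted p of 0.129 over 18 such tests. The share at 0.1 µM did not overlap that in DMSO either (31.4% to 35.5%; the same p and adjusted p). Reads not uniquely aligned made up 36.6% to 41.5% at 10 µM and 26.9% to 33.5% in DMSO, also without overlap. In all, 3 libraries stood apart on such measures: replicate 3 at 0.1 µM had the highest share of reads not uniquely aligned, replicate 1 at 1 µM the lowest gene count and replicate 2 at 1 µM the highest share outside genes. For the members, results that changed without these 3 libraries, or with the share outside genes as covariate, are given with both values. For other pathway genes, often only the highest adjusted p among the alternative fits is given, and not every change between doses.

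Levels are CPM, counts scaled to a common library size with TMM factors, and are compared within a gene only. A gene is called, and said to have risen or fallen, when its Benjamini-Hochberg adjusted p from edgeR's quasi-likelihood test over all 21372 tested genes was under 0.05. One member was called at 0.1 µM against DMSO, where 3.43% of all tested genes were called. The same count was 1 at 1 µM, where 12.4% of all genes were called, and 3 at 10 µM, where 18.3% were. All of these calls were increases, beside 2.3%, 7.13% and 9.9% of all genes called higher at 0.1, 1 and 10 µM and 1.14%, 5.27% and 8.45% called lower. The median log2 fold change of the 7 members over DMSO was 0.03, 0.21 and 0.17 at 0.1, 1 and 10 µM, and that of all genes lay within 0.01 of 0. The 3 comparisons share the DMSO libraries.

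**Figure D1:**
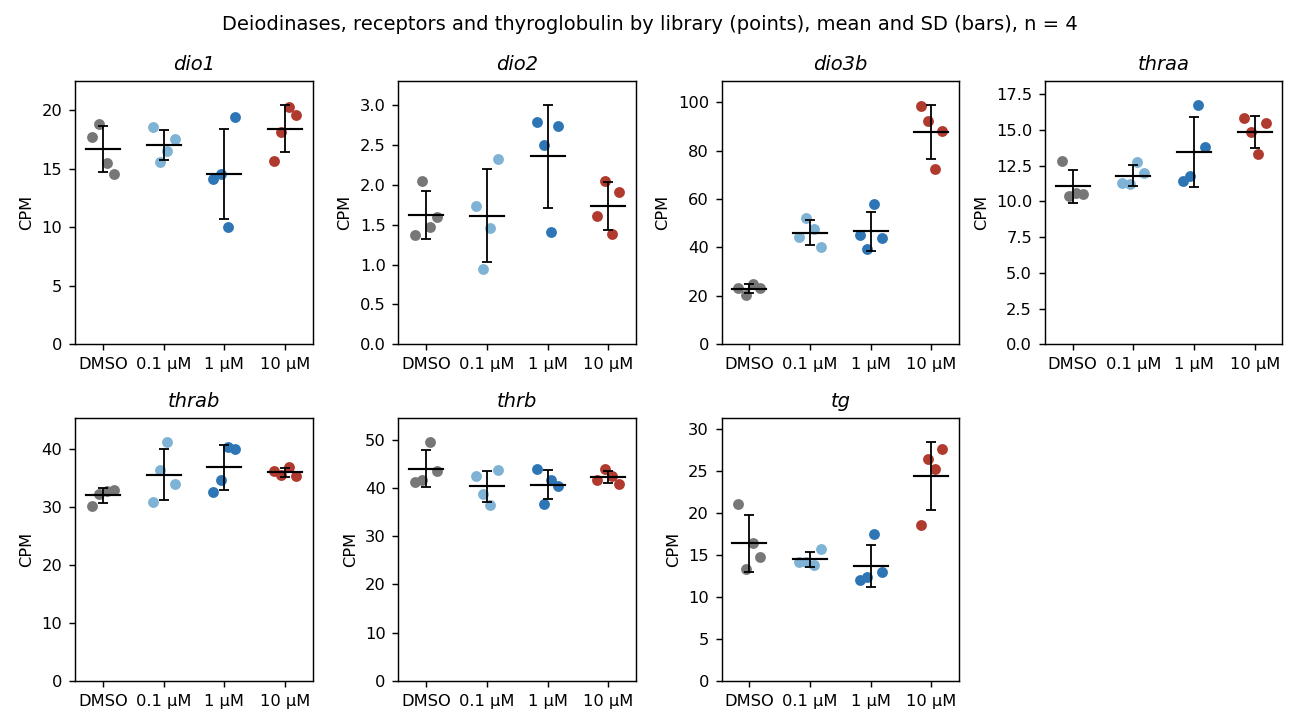
CPM of each of the 7 genes in every library (points) with group means, for DMSO and PCB153 at 0.1, 1 and 10 µM (n = 4 each). For dio3b every exposed library lies above every DMSO library, and the 10 µM libraries, at 72.6 to 98.6 CPM, lie above all others.

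Among the deiodinases, dio3b, a type 3 enzyme that inactivates thyroid hormone, rose at every dose. In DMSO larvae it had 23.4, 20.2, 25 and 23.3 CPM. At 0.1 µM the values were 44.5, 52.4, 47.6 and 40.3 CPM, and at 1 µM they were 45.2, 39.4, 58.0 and 44.1 CPM. At 10 µM they were 98.6, 92.2, 72.6 and 88.1 CPM. No exposed library overlapped the DMSO group, the range at 0.1 µM lay within that at 1 µM, and the group at 10 µM lay above both. Groups that did not overlap were found for 9.99%, 19.2% and 24.9% of all genes at 0.1, 1 and 10 µM against DMSO.

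The rise of dio3b was 2.01-fold at 0.1 µM (log2 fold change 1.01 ± 0.12, SE; adjusted p = 1.26e-04, edgeR) and 2.03-fold at 1 µM (1.02 ± 0.12, adjusted p = 3.93e-05). At 10 µM it was 3.82-fold (1.93 ± 0.12, 95% interval of the fold 3.20 to 4.56, adjusted p = 1.65e-08). All 3 calls against DMSO were kept in each of the 23 alternative fits, and the log2 fold change at 0.1 µM was 1.15 with the outside-genes share as covariate. Between doses, dio3b was 1.90-fold higher at 10 µM than at 0.1 µM (95% interval 1.61 to 2.25, adjusted p = 7.80e-05) and 1.88-fold higher at 10 µM than at 1 µM (1.59 to 2.23, adjusted p = 3.84e-04). The call at 10 µM against 1 µM was lost with the outside-genes share as covariate, where the log2 difference was 0.72, against 0.91 without it (adjusted p = 0.139). Between 1 and 0.1 µM the log2 difference was 0.02 with a 95% interval of -0.23 to 0.27 (adjusted p = 0.967).

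The other 2 deiodinases did not pass the threshold in the 6 comparisons, by edgeR or DESeq2. The type 1 enzyme dio1 had 14.5 to 18.8 CPM in DMSO, 15.6 to 18.5 at 0.1 µM, 10.0 to 19.4 at 1 µM and 15.7 to 20.2 at 10 µM. Its log2 fold changes over DMSO were 0.03 (95% interval -0.26 to 0.33), -0.18 (-0.49 to 0.12) and 0.14 (-0.15 to 0.44) at 0.1, 1 and 10 µM, so all 3 intervals stayed well under the change of dio3b. At 10 µM against 1 µM dio1 differed by 0.33 ± 0.15 on the log2 scale (unadjusted p = 0.0380, adjusted p = 0.200), and without replicate 4 at 1 µM the same difference was 0.52 (adjusted p = 0.0270).

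The type 2 enzyme dio2, which makes the active hormone, had few reads, 14 to 42 in a library. Its mean level was 1.62 ± 0.30 CPM in DMSO, 1.62 ± 0.58 at 0.1 µM, 2.36 ± 0.65 at 1 µM and 1.74 ± 0.30 at 10 µM (SD, n = 4 each). The largest difference from DMSO was at 1 µM, 0.52 ± 0.25 on the log2 scale with an interval of -0.00 to 1.05 (adjusted p = 0.190). At 10 µM the interval was -0.45 to 0.64, so at this depth levels of dio2 from 0.73-fold to 1.56-fold that of DMSO were not excluded by the data. At 1 µM the interval reached up to 2.07-fold.

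The balance within a library was read as the ratio of dio1 to dio3b counts, of which only the difference between groups has a meaning, since gene lengths were not used. The ratio was 0.619 to 0.929 in DMSO, 0.298 to 0.435 at 0.1 µM, 0.173 to 0.441 at 1 µM and 0.159 to 0.279 at 10 µM. No exposed library overlapped the DMSO group. On the log2 scale the mean ratio was -2.25 ± 0.34 at 10 µM and -0.47 ± 0.28 in DMSO (SD, n = 4 each), with an exact two-sided permutation p of 0.0286 at each dose and 0.0572 after adjustment over the 12 ratio tests made. The ratio of dio2 to dio3b gave the same p and adjusted p against DMSO at 0.1 and 10 µM, and an exact permutation p of 0.314 at 1 µM. An exact p of 0.0286 is the smallest that 4 against 4 libraries allow, and neither ratio passed 0.05 after adjustment. These ratios hold the dio3b values already given and are not a second measurement of them.

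**Figure D2:**
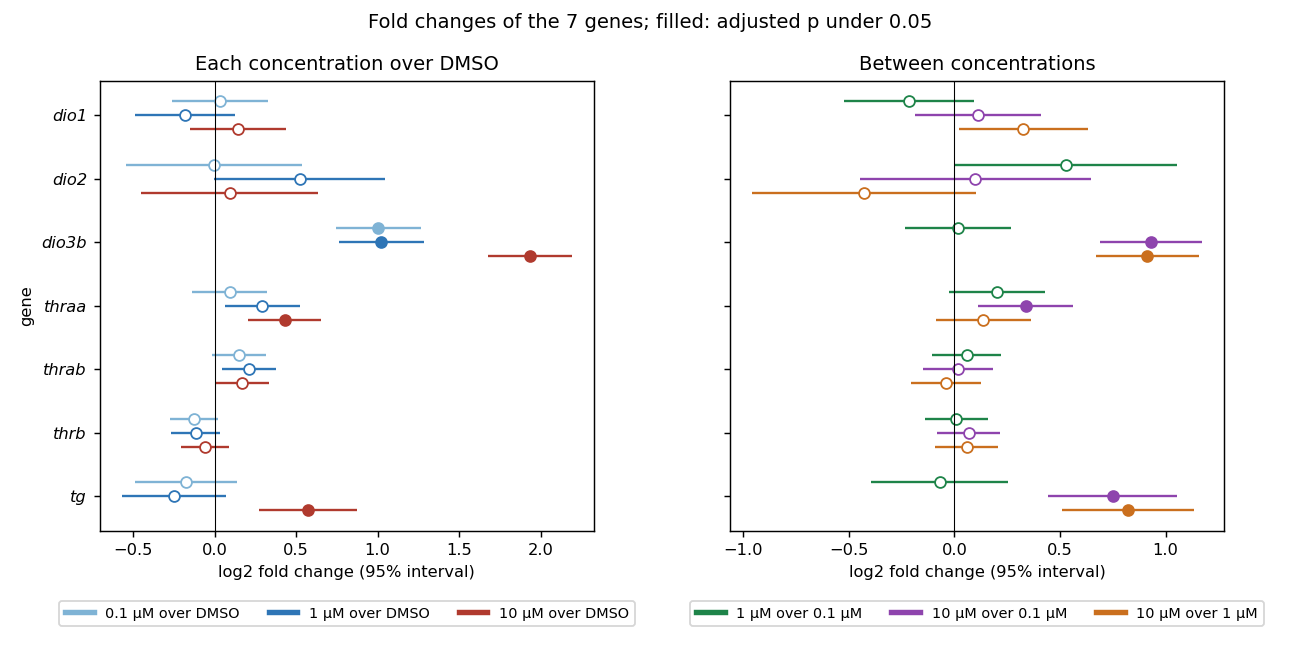
Log2 fold changes of the 7 genes (points) with 95% intervals, against DMSO and between doses; filled points have an adjusted p under 0.05. Against DMSO, dio3b stands at 1.01, 1.02 and 1.93 for 0.1, 1 and 10 µM, and thraa and tg are filled at 10 µM.

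Of the 3 receptor genes, thraa, which encodes an alpha receptor, rose at 10 µM. It had 12.8, 10.4, 10.6 and 10.5 CPM in DMSO and 11.3, 11.2, 12.8 and 12.0 CPM at 0.1 µM. At 1 µM it had 11.4, 11.8, 16.8 and 13.8 CPM, and at 10 µM 15.9, 14.9, 13.3 and 15.5 CPM. Replicate 1 of DMSO was higher than the other 3, and the group at 10 µM still lay above it without overlap.

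At 10 µM the rise of thraa was 1.35-fold (log2 fold change 0.43 ± 0.11, adjusted p = 0.00801, edgeR) and was kept in all 23 alternative fits. At 1 µM the log2 difference from DMSO was 0.29 ± 0.11 (adjusted p = 0.0860). It passed the threshold without DMSO replicate 1 (adjusted p = 0.0462), with the outside-genes share as covariate (0.0332) and without the 3 libraries that stood apart (0.0187). At 0.1 µM the difference was 0.09 ± 0.11 (adjusted p = 0.733). Against 0.1 µM, thraa was higher at 10 µM by 0.34 ± 0.11 (adjusted p = 0.0296), a call lost in 6 of 23 alternatives. These were the fits without replicate 1 or 2 at 0.1 µM or replicate 1, 2 or 4 at 10 µM (adjusted p 0.0586 to 0.0930) and the fit with the covariate, where the log2 difference was 0.07 (adjusted p = 0.847).

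The second alpha receptor gene, thrab, had 30.2 to 33.0 CPM in DMSO, 30.9 to 41.3 at 0.1 µM, 32.6 to 40.4 at 1 µM and 35.4 to 37.0 at 10 µM. The 10 µM libraries lay above all DMSO libraries, where 24.9% of all genes had groups without overlap in either direction. The log2 difference of 0.17 ± 0.08 did not pass the threshold over all 16 libraries (adjusted p = 0.151). It passed when only the 8 libraries of those groups were fitted (adjusted p = 0.0323). At 1 µM the difference of 0.21 ± 0.08 (adjusted p = 0.0894) passed without replicate 1 at 1 µM (0.0445) and without the 3 libraries that stood apart (0.00956). Reads that align equally well to thraa and thrab are not uniquely aligned and stayed out of these counts. Their number is not known.

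The beta receptor gene thrb was not called in any comparison. It averaged 44.0 ± 3.86 CPM in DMSO, 40.3 ± 3.31 at 0.1 µM, 40.7 ± 2.98 at 1 µM and 42.3 ± 1.26 at 10 µM (SD, n = 4 each). The log2 differences from DMSO were -0.13, -0.12 and -0.06 at 0.1, 1 and 10 µM, and the 95% intervals together ran from -0.27 to 0.09. The ratio of thraa to thrb counts was higher at 10 µM than in DMSO by 0.48 on the log2 scale (exact permutation p = 0.0286, adjusted over 12 tests 0.0572), and the ratio of thraa to thrab by 0.26 (exact permutation p = 0.0857).

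Thyroglobulin, tg, the precursor protein of thyroid hormone and a product of the thyroid follicle, rose only at 10 µM among the comparisons with DMSO. It had 21.1, 13.3, 16.5 and 14.7 CPM in DMSO and 14.2, 14.2, 13.8 and 15.7 CPM at 0.1 µM. At 1 µM it had 12.0, 12.3, 17.5 and 13.0 CPM, and at 10 µM 18.6, 26.4, 25.2 and 27.7 CPM. Replicate 1 at 10 µM fell below DMSO replicate 1, so these groups overlapped, whereas the group at 10 µM lay above all libraries at 0.1 and 1 µM.

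The rise of tg at 10 µM was 1.49-fold (log2 fold change 0.57 ± 0.14, 95% interval 0.27 to 0.87, adjusted p = 0.00960, edgeR) and was kept in all 23 alternative fits. At 0.1 and 1 µM the differences from DMSO were -0.18 ± 0.15 and -0.25 ± 0.15 (adjusted p = 0.603 and 0.325). The level at 10 µM exceeded that at 0.1 µM by 0.75 ± 0.14 (adjusted p = 0.00173) and that at 1 µM by 0.82 ± 0.15 (adjusted p = 0.00452). With the outside-genes share as covariate both of these calls were lost, with log2 differences of 0.51 and 0.57 (adjusted p = 0.232 and 0.418), and the call against 1 µM was also lost without the 3 libraries that stood apart (0.0990). In RNA of whole larvae, fewer cells of a type and less RNA per cell, or more of either, cannot be told apart.

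Between doses, 3 of the 7 members were called at 10 µM against 0.1 µM (dio3b, thraa and tg), all higher, where 21.4% of all genes were called, 10.8% of them higher and 10.6% lower as shares of all genes. At 10 µM against 1 µM 2 were called (dio3b and tg), both higher, beside 6.15% of all genes, 3.11% higher and 3.05% lower. Groups did not overlap for 21.2% of all genes at 10 against 0.1 µM, 13.7% at 10 against 1 µM and 6.58% at 1 against 0.1 µM. Between 1 and 0.1 µM edgeR called 0 members, beside 0.973% of all genes; 0 had an unadjusted p under 0.05, and DESeq2 also called 0.

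Members varied among themselves in ways the group means do not show. Over the 16 libraries the Pearson r of log2 CPM was 0.77 between dio3b and thraa and 0.61 after group means were removed. Between dio1 and dio3b it was 0.06 over all libraries and -0.72 within groups. Among all pairs of members, these had the highest and the lowest r within groups. Between dio2 and dio3b the r within groups was -0.62, and between dio1 and dio2 it was 0.58. Replicate 3 at 1 µM had the lowest dio1 and dio2 of its group, 10.0 and 1.41 CPM. It also had the highest dio3b and thraa, 58.0 and 16.8 CPM. The weight of this library in the r within groups was not tested. The r values describe 16 libraries that share their exposure groups and their depth.

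The genes whose levels were most like those of dio3b over the 16 libraries were nfil3-6, related to the mammalian repressor NFIL3 (r = 0.976), PNP, a purine nucleoside phosphorylase (0.948), guca1c, a guanylate cyclase activating protein (0.945), ARR3, a cone arrestin (0.941, ENSDARG00000098475), and ncaldb, a neurocalcin (0.936). Their r within groups was 0.55, -0.02, -0.14, 0.08 and 0.61 in the same order, so most of the likeness of PNP, guca1c and ARR3 lay between groups. nfil3-6 averaged 74.6 ± 4.52 CPM in DMSO, 148 ± 10.9 at 0.1 µM, 170 ± 31.2 at 1 µM and 299 ± 26.7 at 10 µM (SD, n = 4 each). guca1c averaged 21.7 ± 1.36, 35.7 ± 3.44, 39.6 ± 2.76 and 55.9 ± 2.1 CPM in the same order of groups. ARR3 averaged 82.5 ± 7.54, 127 ± 10.0, 116 ± 8.17 and 165 ± 5.83 CPM in that order. ncaldb averaged 20.8 ± 0.85, 28.3 ± 2.72, 26.5 ± 2.71 and 34.0 ± 3.69 CPM. The means of ARR3 and ncaldb were lower at 1 than at 0.1 µM, unlike those of nfil3-6, guca1c and dio3b. For these genes no step between 1 and 0.1 µM was called (edgeR adjusted p 0.315 to 0.967). The genes were picked for their likeness to dio3b, so a shared rise with dose is a property of the choice.

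**Figure D3:**
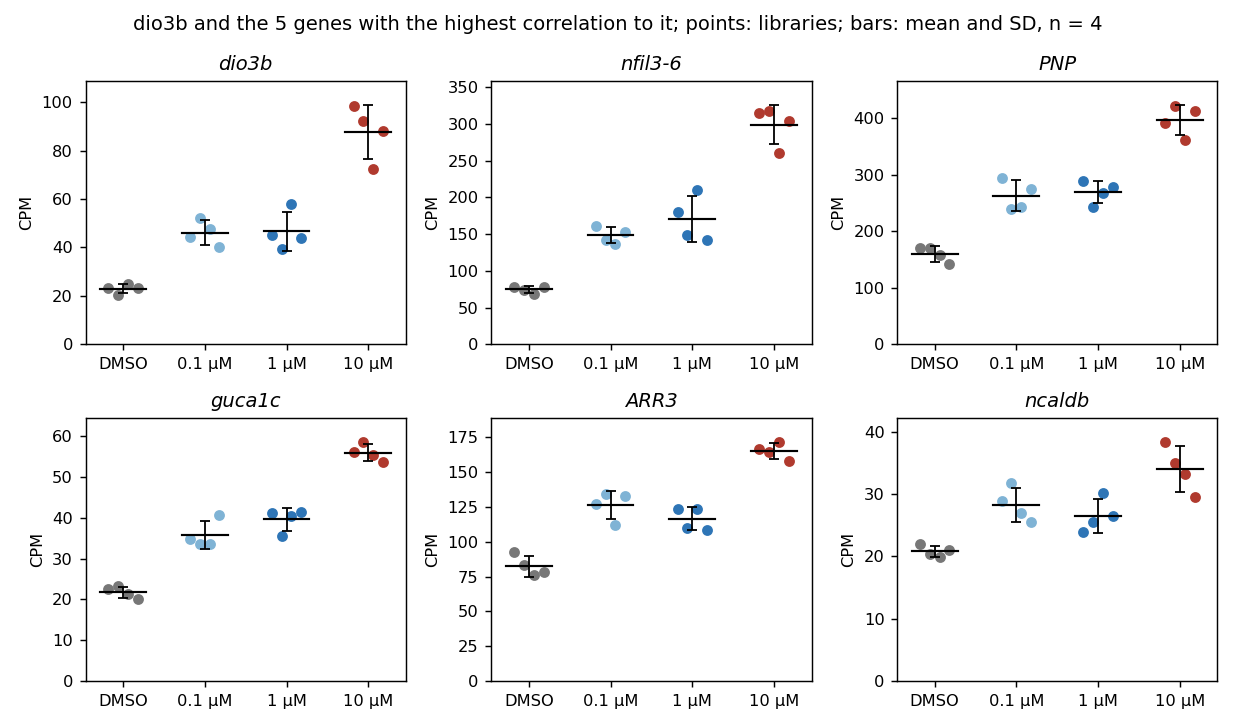
CPM of dio3b and the 5 genes most like it in every library (points), for DMSO and PCB153 at 0.1, 1 and 10 µM (n = 4 each). nfil3-6 averaged 299 CPM at 10 µM and 74.6 CPM in DMSO.

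The genes most like thraa were ctsf, a cathepsin (r = 0.901 over 16 libraries, 0.81 within groups), zgc:123305 (0.889), GLDC, an enzyme of glycine cleavage (0.884), PCSK1, a prohormone convertase (0.880, 0.84 within groups), and ECE2, a metalloprotease (0.878). PCSK1 averaged 72.7 ± 5.19 CPM at 10 µM and 53.9 ± 1.83 CPM in DMSO (SD, n = 4 each). Those most like tg were fthl31, named as a ferritin heavy chain-like gene (0.890, 0.74 within groups), ENSDARG00000076268 (0.875), s100s (0.875), si:ch211-207l14.1 (0.869) and tob2 (0.855). fthl31 averaged 18.5 ± 3.41 CPM at 10 µM and 11.3 ± 1.59 CPM in DMSO.

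Some markers of other tissues were called at 10 µM against DMSO, where 18.3% of all tested genes were called, 9.9% higher and 8.45% lower. Of 9 cone markers, 6 rose at 10 µM, and their summed level was 1575 to 1764 CPM at 10 µM and 1265 to 1436 CPM in DMSO. Of 10 glial markers 4 rose and 0 fell, with sums of 1659 to 1768 CPM at 10 µM and 1334 to 1405 CPM in DMSO. Most of the rise of this sum came from the GLUL genes, which averaged 527.2 and 323.3 CPM at 10 µM and 309.3 and 211.3 CPM in DMSO. Among the other glial markers, the means of the SLC1A2 and SLC1A3 genes and of her4.1 were higher at 10 µM than in DMSO. Those of GFAP and the FABP7 genes were lower at 10 µM than in DMSO. GFAP averaged 182.4 and 200.7 CPM, and FABP7 (ENSDARG00000007697) 142.2 and 158.5 CPM, in that order. Of 8 neuronal markers 3 rose and 2 fell, with sums of 1604 to 1631 CPM at 10 µM and 1473 to 1598 CPM in DMSO. Of 10 liver markers 1 rose and 5 fell, with sums of 2334 to 2862 CPM at 10 µM and 3194 to 3808 CPM in DMSO. All 5 skin markers fell, with sums of 7032 to 7784 CPM at 10 µM and 9685 to 11190 CPM in DMSO. Their part in the values of dio3b, thraa and tg was not tested. At 0.1 µM 2 of the 9 cone markers rose, ARR3 (ENSDARG00000098475) and CNGA3 (ENSDARG00000012297), and at 1 µM 3 did, these and PDE6H. Of all tested genes, 2.3% were called higher at 0.1 µM and 7.13% at 1 µM. The CNGA3 gene, a subunit of the cone channel, averaged 4.76 ± 0.74 CPM in DMSO, 7.43 ± 0.33 at 0.1 µM, 11.0 ± 1.43 at 1 µM and 10.7 ± 1.29 at 10 µM (SD, n = 4 each). Other cone markers had lower means than in DMSO at 0.1 and 1 µM, without a call. GNAT2 averaged 366.2 CPM in DMSO, 331.7 at 0.1 µM and 341.5 at 1 µM. GNGT2 (ENSDARG00000103543) averaged 252.5, 231.3 and 225.5 CPM in that order. The other GNGT2 gene was also lower at both doses, and the other CNGA3 gene at 1 µM. The means of PDE6C and of the other ARR3 gene were higher at both doses. The summed level of the cone list was 1276 to 1432 CPM at 0.1 µM and 1269 to 1478 CPM at 1 µM. Of 7 muscle markers 1 fell and of 5 gut markers 1 rose at 10 µM, shares of 14.3% and 20%, near the 18.3% of all genes. Of the pituitary list only 3 of 8 genes passed the filter, and edgeR called 0 of them at 10 µM, with 1 at an unadjusted p under 0.05 and 0 called by DESeq2.

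Around the members, 74 further genes of the hormone's pathway were tested, from lists of 7 kinds. At 0.1 µM 3 of them were called against DMSO, 2 higher and 1 lower. At 1 µM 12 were called, 8 higher and 4 lower, and at 10 µM 20, 12 higher and 8 lower. These shares, 4.05%, 16.2% and 27.0%, stand beside the 3.43%, 12.4% and 18.3% of all genes given above. The lists were written with earlier results of these data known, so the shares cannot show an enrichment of the pathway. They also count six7, listed as a cone gene, and selenoproteins other than deiodinases.

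The central axis list holds hypothalamic and pituitary genes that drive the gland, and also TSHR, the thyrotropin receptor gene of the thyroid follicle. Of its 7 tested genes, 2 rose at 10 µM, a share of 28.6%, beside 18.3% of all genes called in either direction. TRH, thyrotropin-releasing hormone (ENSDARG00000006868), had 7.97 ± 0.25 CPM at 10 µM and 5.56 ± 0.62 CPM in DMSO (SD, n = 4 each; log2 fold change 0.52 ± 0.11, adjusted p = 0.00174). CRH, corticotropin-releasing hormone, which also stimulates thyrotropin release in amphibians and some fish (ENSDARG00000027657), had 8.39 ± 0.74 CPM at 10 µM and 5.04 ± 0.73 CPM in DMSO (0.74 ± 0.13, adjusted p = 2.92e-04). Both calls were kept in all 23 alternatives, and in each gene every library at 10 µM was above every DMSO library. At 0.1 µM the TRH libraries lay below those of DMSO, by 0.31 on the log2 scale, without passing the threshold (adjusted p = 0.151). Of all genes, 9.99% and 24.9% had groups that did not overlap with DMSO at 0.1 and 10 µM. Against 0.1 µM, TRH and CRH were higher at 10 µM by 0.83 ± 0.11 and 0.82 ± 0.13 (adjusted p = 5.33e-05 and 1.83e-04), and the CRH call was lost with the covariate (0.107). The receptor genes TSHR and TRHR (ENSDARG00000076546) differed from DMSO by 0.30 ± 0.37 and 0.01 ± 0.18 at 10 µM (adjusted p = 0.625 and 0.987). TSHB and SLC5A5, the thyrotropin subunit and the iodide transporter, had 0 to 18 and 0 to 12 counts in a library and were below the filter.

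Of the 9 tested genes of the gland and iodide list, measured in RNA of whole larvae, 1 was called against DMSO. That was 11.1% at 1 and at 10 µM, beside 12.4% and 18.3% of all genes. duox, a dual oxidase that supplies hydrogen peroxide for hormone synthesis and is also expressed outside the thyroid (ENSDARG00000062632), fell at 1 and 10 µM. It had 5.62 ± 1.89 CPM in DMSO, 4.43 ± 1.57 at 0.1 µM, 2.42 ± 0.66 at 1 µM and 2.15 ± 0.61 at 10 µM (SD, n = 4 each). Its log2 fold changes were -1.20 ± 0.28 (adjusted p = 0.00996) at 1 µM and -1.40 ± 0.29 (adjusted p = 0.00265) at 10 µM, the call at 1 µM being lost without the 3 libraries that stood apart (0.0513). Thus tg and duox, both named for hormone synthesis, moved in opposite directions at 10 µM. IYD, which recovers iodide, and foxe1, a thyroid transcription factor, differed from DMSO by -0.53 ± 0.19 and -0.29 ± 0.13 at 10 µM (adjusted p = 0.0589 and 0.124).

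Of 9 transport and binding genes, 2 were called at 10 µM, in opposite directions. This share of 22.2% was near the 18.3% of all genes. SLC7A8, an amino acid transporter whose mammalian form also carries thyroid hormone (ENSDARG00000075831), rose by 0.48 ± 0.12 on the log2 scale (297 ± 37.8 CPM at 10 µM and 213 ± 19.2 CPM in DMSO, adjusted p = 0.00993). slc7a8b (ENSDARG00000054343) fell by 0.54 ± 0.17 on the log2 scale (adjusted p = 0.0349), a call lost without DMSO replicate 2, 3 or 4 or without replicate 1 or 3 at 10 µM (0.0617 to 0.139). CRYM, a hormone-binding protein of the cytosol, differed by -0.64 ± 0.24 (adjusted p = 0.0646) and SLC7A5 by -0.02 ± 0.06 (adjusted p = 0.850).

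**Figure D4:**
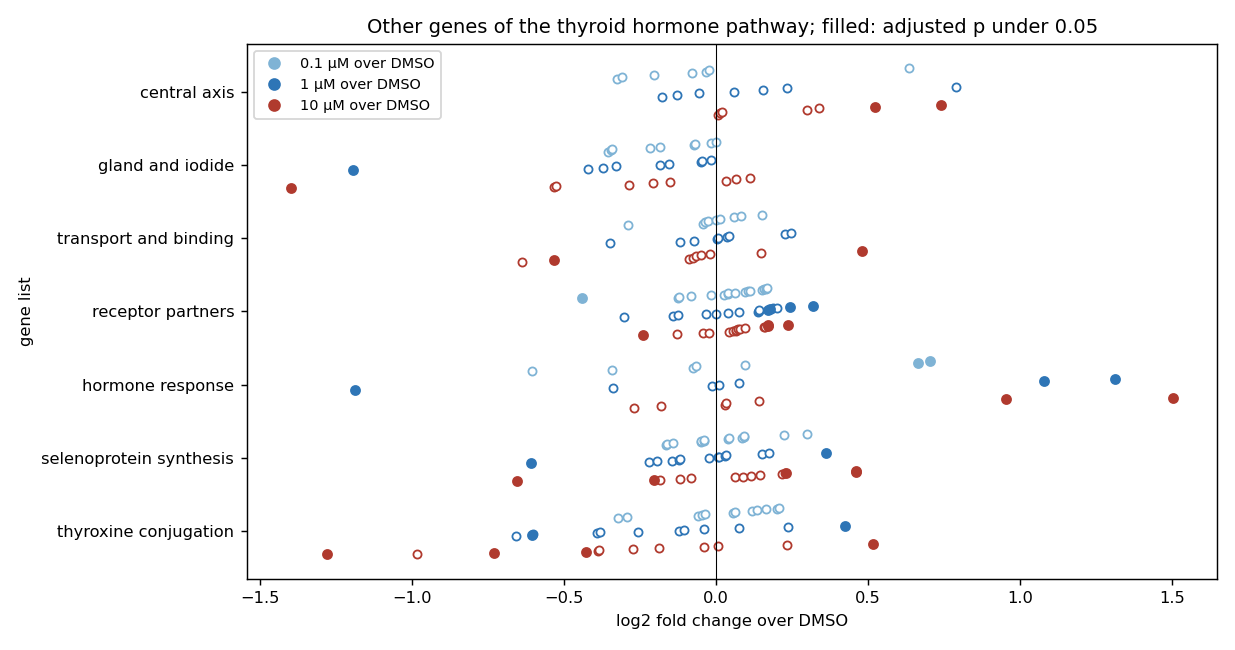
Log2 fold changes over DMSO of the other tested pathway genes (points), by list and dose; filled points have an adjusted p under 0.05. In the hormone response list KLF9 reached 1.50 at 10 µM, and in the gland list duox stood at -1.40.

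Of 16 tested partners of the receptors, 1 fell at 0.1 µM, 4 rose at 1 µM, and 3 rose and 1 fell at 10 µM, each by less than 0.5 on the log2 scale. Their shares of 6.25%, 25% and 25% stand beside 3.43%, 12.4% and 18.3% of all genes. The calls named here were each lost in some alternatives. The retinoid X receptor gene rxrgb fell by 0.44 at 0.1 µM (adjusted p = 0.0448, up to 0.297), RXRA (ENSDARG00000035127) rose by 0.32 at 1 µM (0.0383, up to 0.624) and rxrbb by 0.24 at 10 µM (0.0167, up to 0.0682). The co-repressor NCOR1 rose by 0.18 at 1 µM (adjusted p = 0.0231, up to 0.110). The co-activator NCOA2 rose by 0.17 at 1 µM (0.0470, up to 0.212) and by 0.17 at 10 µM (0.0341, up to 0.0958), and the mediator subunit MED1 fell by 0.24 at 10 µM (0.0263, up to 0.110). Of 23 alternatives, 9 kept the call of rxrgb, 11 that of NCOA2 at 1 µM and 13 that of RXRA. The other calls named here were kept in 15 to 20.

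Among 7 tested genes of the hormone response list, 2 rose at every dose. Calls in either direction made up 28.6%, 42.9% and 28.6% of this list at 0.1, 1 and 10 µM. Of all genes, 3.43%, 12.4% and 18.3% were called. KLF9, a Krüppel-like factor known as a direct target of thyroid hormone and of glucocorticoids in mammals and frogs, had 118 ± 7.61 CPM in DMSO, 192 ± 19.3 at 0.1 µM, 293 ± 38.2 at 1 µM and 334 ± 42.5 at 10 µM (SD, n = 4 each). Its log2 fold changes were 0.70, 1.31 and 1.50, each ± 0.10 (adjusted p = 3.58e-04, 8.37e-08 and 9.97e-09). While the log2 difference of dio3b between 1 and 0.1 µM was 0.02, KLF9 was higher at 1 than at 0.1 µM by 0.61 ± 0.10 (adjusted p = 0.00969, and 0.0516 in a fit of those 8 libraries alone). The difference between the 2 genes in this step was not tested.

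The second, six7, a transcription factor of zebrafish green cones that stood in the list as a cone gene rather than as an established target, had 34.4 ± 3.41, 54.5 ± 3.43, 72.8 ± 5.36 and 66.7 ± 3.55 CPM in DMSO and at 0.1, 1 and 10 µM. Its log2 fold changes were 0.66, 1.08 and 0.95 (adjusted p = 4.25e-06, 9.56e-10 and 4.30e-09). The red opsin gene opn1lw1 fell by 1.19 ± 0.28 on the log2 scale at 1 µM (adjusted p = 0.00741), a call lost with the covariate (0.171) and without the 3 libraries that stood apart (0.0511). It was not called at 10 µM against DMSO, where 0 genes of this list fell. At 10 µM it was higher than at 1 µM by 1.01, a call kept in 9 of 23 alternatives. opn1lw2 differed from DMSO by 0.14 ± 0.07 at 10 µM (adjusted p = 0.149), and growth hormone, gh1, by -0.61 ± 0.18 at 0.1 µM (adjusted p = 0.0755).

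Deiodinases need the machinery that inserts selenocysteine, and of 14 tested genes of this machinery and other selenoproteins, 1 rose and 1 fell at 1 µM and 3 rose and 2 fell at 10 µM. These shares, 14.3% and 35.7%, stand beside 12.4% and 18.3% of all genes. SEPHS1, a selenophosphate synthetase relative, fell at 1 and 10 µM. It had 16.9 ± 1.49 CPM in DMSO, 15.3 ± 2.82 at 0.1 µM, 11.0 ± 1.74 at 1 µM and 10.7 ± 1.11 at 10 µM (SD, n = 4 each). Its log2 fold changes were -0.61 ± 0.12 at 1 µM (adjusted p = 0.00202, 0.0696 with the covariate) and -0.66 ± 0.12 at 10 µM (adjusted p = 6.99e-04, kept in all 23 alternatives). At 10 µM the glutathione peroxidases gpx1b and gpx1a rose by 0.46 and 0.23 on the log2 scale (adjusted p = 0.0227, up to 0.0789 in the alternatives, and 0.0311, up to 0.116). The selenium carrier selenop2 rose by 0.46 (0.0471, up to 0.130, kept in 11 of 23 alternatives). SEPHS2, the selenophosphate synthetase itself, fell by 0.21 (0.0478, lost in 15 alternatives). TRNAU1AP, a protein associated with the selenocysteine tRNA, rose by 0.36 at 1 µM (adjusted p = 0.0447, up to 0.142, kept in 11 of 23 alternatives).

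Thyroid hormone is cleared by sulphation and glucuronidation. Of 12 tested genes of the 2 enzyme families, 1 rose and 1 fell at 1 µM, and 1 rose and 3 fell at 10 µM. These shares, 16.7% and 33.3%, stand beside 12.4% and 18.3% of all genes. The sulphotransferase sult1st3 rose by 0.51 ± 0.11 on the log2 scale at 10 µM (19.3 ± 2.29 CPM at 10 µM and 13.5 ± 1.31 CPM in DMSO, adjusted p = 0.00214, kept in all 23 alternatives) and by 0.42 ± 0.11 at 1 µM (adjusted p = 0.0136, 0.0536 without DMSO replicate 3 and 0.0606 without replicate 4 at 1 µM). sult1st6 fell by 0.43 ± 0.10 on the log2 scale at 10 µM (13.8 ± 1.57 CPM at 10 µM and 18.6 ± 1.47 CPM in DMSO, adjusted p = 0.00406, kept in all 23). Other falls were those of sult1st4 by 0.61 at 1 µM (adjusted p = 0.0238, up to 0.135), and of sult1st9 by 1.28 and the glucuronosyltransferase ugt1b7 by 0.73 at 10 µM (0.0226, up to 0.0778, and 0.0161, up to 0.0646). The glucuronosyltransferases ugt1b1 and ugt1b2 differed by -0.39 ± 0.14 and -0.98 ± 0.35 at 10 µM (adjusted p = 0.0604 and 0.0606). The sult1st and ugt1b genes are families of close copies, and reads not uniquely aligned among them stayed out of the gene counts.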

How the data were processed

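Total RNA of 16 libraries was counted per gene. The deposited files hold whole-number read counts for 32105 Ensembl genes per library, without normalization, and 5 summary lines of the counting program, which stayed out of library sizes and tests. Per the submitters' processing notes, Trimmomatic, HTSeq and edgeR were used with build GRCz10, no versions being named. The aligner and the annotation are not stated in the sources used. Per the names of the deposited files, counting was reverse-stranded, in union mode.

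Symbols were matched through a table of gene names, and a zebrafish name without its own entry through the symbol less its final a or b. Counts were filtered with filterByExpr by group (21372 genes), scaled with TMM and fitted by group over the 16 libraries in edgeR 4.0.16 (R 4.3.3), with robust quasi-likelihood tests and Benjamini-Hochberg adjustment over all genes within each of 6 comparisons. DESeq2 1.42.0 was an alternative. Ratios of 2 members (pseudocount 0.5) and library measures were compared with exact permutation tests of 4 against 4. Replicates of a group differed by more than sampling noise (chi-square per degree of freedom 3.19 to 12.9 over 24 pairs). The fitting was tested on counts simulated from the model that it assumes. That test held no differences between libraries such as the outside-genes share, so it cannot show how the fit handles them.

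The text names every member, every listed pathway gene past the threshold against DMSO with up to 2 more per list by smallest p, and the 5 genes most like each called member. Further genes of the lists were counted only. A result that this rule would name is not reported here. The members, lists and tests were chosen with earlier results of these data known. Of 142 listed names other than members, 17 matched no identifier. Alternatives were median-ratio scaling, DESeq2, no filter on low counts, each library left out, a replicate block, only the 8 libraries compared, the outside-genes share as covariate, and 3 libraries left out that stand apart. No genome or sequence was used.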

Additional observations from a re-analysis of the deposited data

Results flagged for a closer look

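In 5 groups a value stood far from the other 3 libraries by Dixon's criterion, of 188 groups of 4 libraries examined over 47 genes; chance alone gives about 1 in 20 groups. One concerns a member: thraa had 12.81 CPM in DMSO replicate 1, against 10.38 to 10.6 in the other DMSO libraries. IYD (ENSDARG00000076056) had 2.545 CPM in replicate 1 at 10 µM, against 1.624 to 1.762 in the others of that group. foxe1 (ENSDARG00000079266) had 7.173 CPM in DMSO replicate 2, against 5.79 to 5.959. slc7a8b (ENSDARG00000054343) had 6.334 CPM in replicate 4 at 0.1 µM, against 4.287 to 4.613. gh1 (ENSDARG00000038185) had 7.303 CPM in the same library, against 5.818 to 5.899.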

How the results depend on the processing

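No result changed direction among called values in the 23 alternatives. Of 10 calls of members over the 6 comparisons, 6 were kept in all of them. The fit without the 3 libraries that stood apart, and all alternatives for the pathway genes, were chosen after seeing the data. The causes of the changes below were not tested.

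With the outside-genes share as covariate, the count of all genes called was 207 at 0.1 µM against DMSO (734 in the reported fit), 1076 at 1 µM (2650), 275 at 10 µM against 0.1 µM (4567) and 53 at 10 µM against 1 µM (1315). Members called were then 2 at 1 µM against DMSO (1), 1 at 10 against 0.1 µM (3) and 0 at 10 against 1 µM (2), with 2 at an unadjusted p under 0.05 in that edgeR fit and 2 called by DESeq2 without the covariate. Pathway genes called were 6 at 1 µM against DMSO (12), 2 at 10 against 0.1 µM (19) and 0 at 10 against 1 µM (5), with 5 at an unadjusted p under 0.05 and 5 called by DESeq2.

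Without the 3 libraries that stood apart, all genes called were 1553 at 1 µM against DMSO, 64 at 1 against 0.1 µM (208) and 286 at 10 against 1 µM; members were 3 at 1 µM against DMSO and 1 at 10 against 1 µM, and pathway genes 1 at 10 against 1 µM. With only the 8 libraries compared, all genes called were 487 at 0.1 µM against DMSO and 7 at 1 against 0.1 µM, and pathway genes 0 at 1 against 0.1 µM (2; 15 at an unadjusted p under 0.05, and 3 by DESeq2). DESeq2 called 579 genes at 1 against 0.1 µM and 5 pathway genes at 0.1 µM against DMSO (3).

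Leaving out 1 library at a time, all genes called ranged from 411 to 1117 at 0.1 µM, 1809 to 3048 at 1 µM and 2580 to 4394 at 10 µM against DMSO, and from 32 to 630, 2961 to 5114 and 528 to 1637 at 1 against 0.1, 10 against 0.1 and 10 against 1 µM. Members called ranged from 1 to 1, 1 to 2 and 3 to 3 against DMSO, and from 0 to 0, 2 to 3 and 2 to 3 between doses. Pathway genes ranged from 2 to 4, 8 to 13 and 10 to 23 against DMSO, and from 2 to 4, 13 to 20 and 2 to 6 between doses.

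The replicate numbers gave no clear sign of pairing: 1 of 24 same-numbered pairs had a correlation of deviations over 0.1, and the mean was -0.01. A weak pairing could go unseen in this measure, and the labels do not say whether the numbers pair libraries. With the replicate number as a block, the calls against DMSO numbered 689, 2613 and 3819 genes at 0.1, 1 and 10 µM, and 1, 1 and 3 members. Of the members, dio2 had the fewest reads, 14 to 42 in a library, which limits the changes that could be detected.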
